A study of Mus musculus with 9 samples.

Results

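The 9 genes Rrm1, Rrm2, Tyms, Tk1, Umps, Cad, Dut, Dck and Samhd1 encode enzymes that make, recycle or remove the deoxynucleotides and pyrimidines a cell needs for DNA. They were chosen by gene symbol, each symbol matched 1 row among the 43629 genes in the files, and all 9 were among the 14808 genes that passed a minimum of 10 normalised counts in 3 libraries. The study sequenced RNA in 9 libraries of RAW264.7, a macrophage-like mouse cell line that was derived with Abelson murine leukaemia virus. These were 3 libraries of cells pretreated with sodium butyrate and stimulated with lipopolysaccharide (LPS+NaBu), 3 of cells given lipopolysaccharide alone (LPS) and 3 of untreated cells (Control). LPS is the endotoxin of Gram-negative bacteria, and sodium butyrate (NaBu) is the salt of a short-chain fatty acid that inhibits histone deacetylases. The labels give neither dose nor time for these libraries, and cells given NaBu without LPS were not analysed here. Replicates were called biological, but separate cultures were not described, so a p-value here reflects how much these libraries varied, and that variation may be technical.

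Ribonucleotide reductase converts ribonucleotides to deoxynucleotides and is built from a large subunit, RRM1, and a small subunit, RRM2, whose level is known to rise in S phase. Thymidylate is made from deoxyuridylate by thymidylate synthase or salvaged from thymidine by thymidine kinase, while the uridylate behind all pyrimidines is assembled by CAD, DHODH and UMPS. SAMHD1 runs the opposite way: it cleaves deoxynucleotide triphosphates, and in macrophages it is known for keeping their pool low, which restricts retroviruses.

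Libraries held 37.6 to 64.4 M reads, and the 9 genes had 506 to 25019 reads in each library. A normalised count is the read count of a gene divided by a size factor of its library. It is not divided by gene length. Within a group the SD of a gene was 0.217% to 13.2% of its mean (median 3.80%, 27 gene and group pairs). Libraries of a group correlated at 0.9902 to 0.993 over the log2 values of all genes (genes are no independent replicates), and no library stood apart. Libraries of different groups correlated at 0.9663 to 0.9823. All 43629 genes entered these correlations, and 24200 of them had reads in any library. Changes are log2(normalised count + 1) ± standard error from limma over all 9 libraries, and a gene was called at a Benjamini-Hochberg adjusted p under 0.05. Of the 14808 genes, 3739 were called higher and 4568 lower with LPS against control, and 5956 higher and 5602 lower with LPS+NaBu against LPS. Scaling the libraries to the same sum gave 2273 higher and 7074 lower, and 7417 higher and 4132 lower. With that scaling the median change of all genes moved to -0.27 with LPS against control, in place of -0.05, and to 0.30 with LPS+NaBu against LPS, in place of 0.02. The macrophage markers Csf1r, Itgam, Cd68, Lyz2, Ptprc, Spi1, Cd14 and Mpeg1 were detected in every library.

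In the LPS+NaBu libraries all 9 genes fell relative to LPS alone, from a 1.32-fold lower mean for Cad to an 8.42-fold lower mean for Rrm2. With LPS alone, relative to control, 7 genes fell (Rrm1, Rrm2, Tyms, Tk1, Umps, Cad and Dut) and 2 rose: Dck, a salvage kinase, and Samhd1, the triphosphatase. The libraries of the groups overlapped for none of the 9 genes in any of the 3 comparisons. Calls were common among all genes: 56.1% were called with LPS against control (25.2% higher and 30.8% lower) and libraries did not overlap for 60.6%. With LPS+NaBu against LPS 78.1% were called (40.2% higher and 37.8% lower) and 79% did not overlap. Relative to control, LPS+NaBu left 8 genes lower and Samhd1 higher, where 76.1% of all genes were called (35.1% lower and 40.9% higher) and 79.4% did not overlap. The median change of the 9 genes was -0.49 with LPS against control, -1.63 with LPS+NaBu against LPS and -1.95 with LPS+NaBu against control, where the medians of all genes tested were -0.05, 0.02 and 0.09. The first and the last of these comparisons share the control libraries, and the LPS libraries enter the first and the second, so the 3 are not independent. Each of the 27 calls kept its direction and its call in all 21 alternatives, which include every scaling tried and the omission of each library. Some of these leave a change as it is and could alter only its call. They are another filter, a replicate block, a fit of only the groups compared and the omission of a library outside the comparison.

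**Figure D1:**
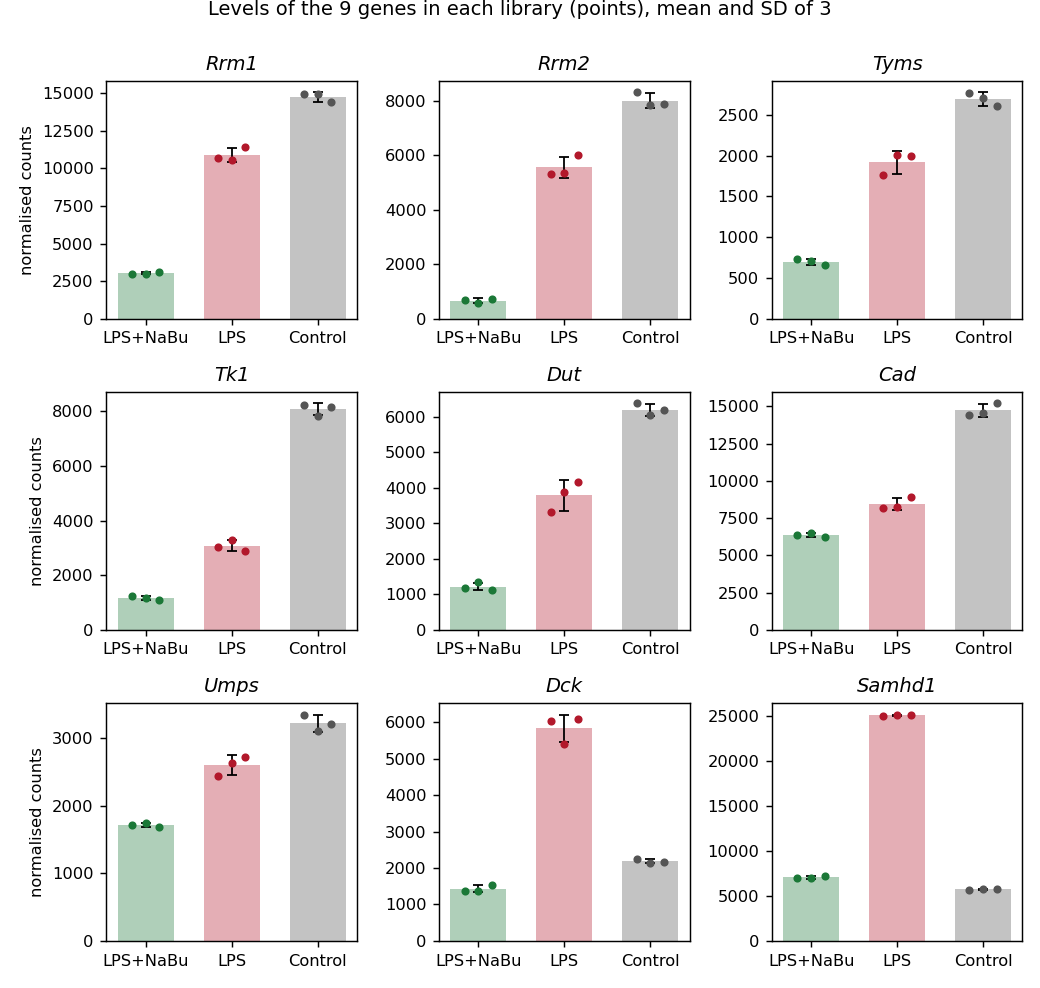
Normalised counts (vertical axes, starting at 0) of the 9 genes in LPS+NaBu, LPS and Control libraries. Points are single libraries, bars are means and whiskers are SD over 3 libraries; 7 genes are lowest with LPS+NaBu and highest in Control, while Dck and Samhd1 stand highest with LPS.

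In bulk RNA, fewer cells that express a gene and less RNA of it per cell cannot be told apart. Of 26 listed genes of S phase and proliferation, 26 fell with LPS+NaBu against LPS (median -1.55), where 37.8% of all genes tested were called lower. With LPS against control 18 fell and 2 rose (median -0.35), where 30.8% of all genes were called lower and 25.2% higher. Dck and Samhd1 rose in that comparison. Of 9 macrophage markers listed, the 8 named above were among the genes measured. Together these summed to 213525 to 231355 normalised counts in LPS+NaBu libraries, 643362 to 680080 in LPS libraries and 470350 to 488040 in Control libraries. Lyz2 held 141218 to 155289 of the sum with LPS+NaBu. From Control to LPS the means of Cd14 (55565 to 165693) and Mpeg1 (33614 to 90400) rose. Csf1r alone had a lower mean with LPS than in Control (25016 against 42749), and every marker had its lowest mean with LPS+NaBu. The 7 fibroblast markers listed summed to 272 to 296 in LPS+NaBu libraries, 13.0 to 18.8 in LPS libraries and 6.36 to 12.1 in Control libraries. Col1a1 made up 141 to 152 of that sum in LPS+NaBu libraries, while Dcn was at 0 there and Col3a1 at 0 to 3.63. The B cell markers listed summed to 35.7 to 50.9 with LPS+NaBu, 2.82 to 12.9 with LPS and 5.57 to 20.0 in Control. Epithelium (4.46 to 13.1) and hepatocyte markers (1.38 to 7.26) were found with LPS+NaBu only, with sums of 0 in the other groups. Neutrophil markers summed highest with LPS (96.2 to 112, against 35.1 to 44.4 with LPS+NaBu). Sums of T cell and endothelium markers overlapped between the LPS+NaBu and LPS libraries. The part of these shifts in the levels of the 9 genes was not tested.

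Rrm2 had the largest change of the 9 with NaBu. It had 678, 564 and 736 normalised counts in the LPS+NaBu libraries, 5296, 5355 and 6005 in the LPS libraries and 8312, 7853 and 7870 in the Control libraries. Each group lay clear of the next, and the LPS+NaBu libraries had a mean 12.2-fold below that of Control. The mean was 659 ± 87.1 with LPS+NaBu against 5552 ± 393 with LPS and 8012 ± 261 in Control (SD, n = 3 each). The change was -3.08 ± 0.08 with LPS+NaBu against LPS (limma adjusted p = 1.95e-12) and -0.53 ± 0.08 with LPS against control (limma adjusted p = 0.000123). Of the 14808 genes tested, 223 had a more negative change than Rrm2 with LPS+NaBu against LPS, and 39 with LPS+NaBu against control, where its change was -3.61 ± 0.08 (limma adjusted p = 5.24e-13).

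Rrm1, the large subunit that carries the catalytic and the allosteric sites, moved in the same directions by less. Rrm1 had 2991, 2970 and 3091 normalised counts in the LPS+NaBu libraries, 10720, 10552 and 11452 in the LPS libraries and 14940, 14935 and 14406 in the Control libraries. The LPS+NaBu libraries were tightly grouped far below the others, and LPS libraries lay below every Control library. Rrm1 changed by -1.85 ± 0.04 with LPS+NaBu against LPS (a 3.62-fold lower mean, limma adjusted p = 5.30e-13) and by -0.44 ± 0.04 with LPS against control (limma adjusted p = 1.74e-06). Since both transcripts are measured in the same library, their ratio does not depend on the scaling between libraries. The log2 ratio of Rrm2 to Rrm1 was -2.14, -2.39 and -2.07 with LPS+NaBu, -1.02, -0.98 and -0.93 with LPS and -0.85, -0.93 and -0.87 in Control. The LPS+NaBu libraries stood apart from both other groups, and the ratio was lower by a factor of 2.34 than with LPS. For this and 10 of the other 11 ratio comparisons the groups did not overlap, which with 3 libraries against 3 gives the smallest two-sided p an exact permutation test allows, 0.1 (0.109 after adjustment over 12 comparisons). With LPS against control the groups of Rrm2 to Rrm1 nearly touched (highest LPS library -0.9313, lowest Control library -0.9273). An exact test on 3 against 3 libraries therefore cannot reach 0.05 for a ratio.

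Rrm2b, which encodes the small subunit used outside S phase and induced by p53, went another way. It had 997, 969 and 1074 normalised counts with LPS+NaBu, 1226, 923 and 1152 with LPS and 761, 901 and 792 in Control. The LPS+NaBu libraries fell within the range of the LPS libraries, and every LPS library was above every Control library. Rrm2b rose by 0.42 ± 0.10 with LPS against control (limma adjusted p = 0.00338), a call lost when libraries were scaled to the same sum (0.19, limma adjusted p = 0.138). With LPS+NaBu against LPS its change of -0.11 ± 0.10 did not pass the test (limma adjusted p = 0.342). Without LPS library 2 that change was -0.23 (limma adjusted p = 0.0247). With LPS+NaBu against control Rrm2b was 0.31 ± 0.10 higher (limma adjusted p = 0.0141), which was lost without LPS+NaBu library 3 (limma adjusted p = 0.0534) or without Control library 1 (limma adjusted p = 0.0629).

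**Figure D2:**
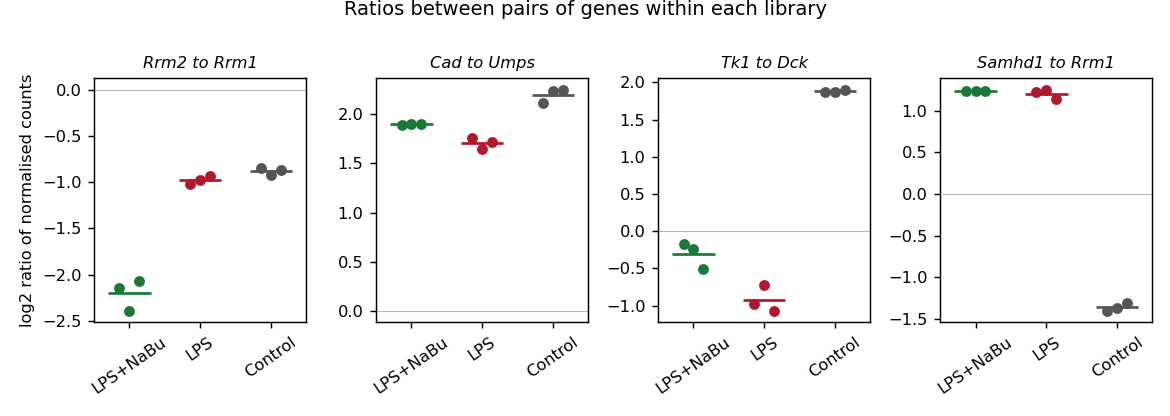
Log2 ratios of normalised counts between 4 pairs of genes (vertical axes), each ratio taken within a library, in LPS+NaBu, LPS and Control libraries. Points are libraries and lines are means of 3; Rrm2 to Rrm1 is lowest with LPS+NaBu (mean -2.20), and Samhd1 to Rrm1 is alike with LPS+NaBu and with LPS (means 1.23 and 1.21) and far lower in Control (mean -1.36).

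The bases before the start sites of both reductase subunits, of Tyms and of the 2 genes that LPS raised are given here, since they hold or lack the motifs of regulators known for growth and inflammatory genes. Windows of 300 bases, 250 before to 50 after the start site, were taken from RefSeq (build GRCm38.p6) for all 9 genes, and each matched GRCm39 exactly at 1 place. The 120 bases before the RefSeq start site are printed 5′ to 3′ on the gene's strand, and capitals mark each match to a motif on either strand that lies wholly within the stretch.
Rrm1: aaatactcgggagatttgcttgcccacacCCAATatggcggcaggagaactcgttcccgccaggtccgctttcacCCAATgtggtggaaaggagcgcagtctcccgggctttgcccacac
Rrm2: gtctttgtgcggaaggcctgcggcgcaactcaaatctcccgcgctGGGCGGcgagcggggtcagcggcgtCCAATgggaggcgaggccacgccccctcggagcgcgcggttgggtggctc
Tyms: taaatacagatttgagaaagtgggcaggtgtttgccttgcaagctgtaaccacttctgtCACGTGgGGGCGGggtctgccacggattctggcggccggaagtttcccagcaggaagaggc
Dck: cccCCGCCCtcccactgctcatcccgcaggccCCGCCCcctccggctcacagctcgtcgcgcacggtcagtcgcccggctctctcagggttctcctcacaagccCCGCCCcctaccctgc
Samhd1: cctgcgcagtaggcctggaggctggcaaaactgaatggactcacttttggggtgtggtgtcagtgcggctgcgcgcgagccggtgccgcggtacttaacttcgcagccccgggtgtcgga
On GRCm39 these stretches are chr7:102090782-102090901 (Rrm1, plus strand), chr12:24758133-24758252 (Rrm2, plus), chr5:30278624-30278743 (Tyms, minus), chr5:88912752-88912871 (Dck, plus) and chr2:156977017-156977136 (Samhd1, minus). GENCODE M39 places the outermost start of these 9 genes 10 to 442 bases before the RefSeq start. The printed stretches of Rrm2 (442 bases), Dck (177) and Samhd1 (171) therefore lie wholly inside the genes as GENCODE draws them.

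All 9 are protein-coding genes. GENCODE M39 places the reductase genes Rrm1 (ENSMUSG00000030978) at chr7:102090890-102119709 (plus) and Rrm2 (ENSMUSG00000020649) at chr12:24757811-24764145 (plus). The thymidylate genes are Tyms (ENSMUSG00000025747) at chr5:30263198-30278633 (minus), Dut (ENSMUSG00000027203) at chr2:125089110-125100966 (plus) and Tk1 (ENSMUSG00000025574) at chr11:117702770-117717042 (minus). The uridylate genes are Cad (ENSMUSG00000013629) at chr5:31212111-31236418 (plus) and Umps (ENSMUSG00000022814) at chr16:33774077-33787429 (minus), and the other 2 are Dck (ENSMUSG00000029366) at chr5:88912695-88931151 (plus) and Samhd1 (ENSMUSG00000027639) at chr2:156939453-156977187 (minus). Exons of Rrm2 overlap those of the long non-coding RNA Gm59512 by 1437 bases and those of Umps overlap Gm15829 by 234 bases, each on the other strand; Gm15829 averaged 2.16 normalised counts over the 9 libraries, and Gm59512 was not analysed here.

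The NF-Y box CCAAT was found in the windows of both reductase subunits, twin copies in Rrm1 starting at -91 and -45 and a single copy in Rrm2 starting at -50, counted from the RefSeq start site. It was found in no window of the other 7 genes, and in 37.4% of all 32851 windows of this length. The MYC E-box CACGTG was found in Tyms alone, starting at -61, and in 7.15% of all windows. The CHR element TTTGAA was found in Umps at -95 and, on the other strand, in Dck at -245, and in 17.9% of all windows. The Sp1 box GGGCGG was found in 8 of the 9 windows, all but Rrm1, against 35.7% of all windows; Dck held 6 copies, and the copy in Samhd1 at -220 lies outside the printed stretch. The E2F core, spelled TTTCCCGC, TTTCGCGC, TTTGCCGC or TTTGGCGC, matched none of the 9 windows and 2.26% of all windows. The interferon-stimulated response element GAAANNGAAA (3.44% of all windows) and the NF-kB site (2.46%) matched none either. A match only describes the letters, and a window without one says nothing of a factor. The shares are over all 32851 windows, whether or not the gene was detected here. The share among the genes tested was not computed. No matches of different motifs overlapped in the 9 windows.

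**Figure D3:**
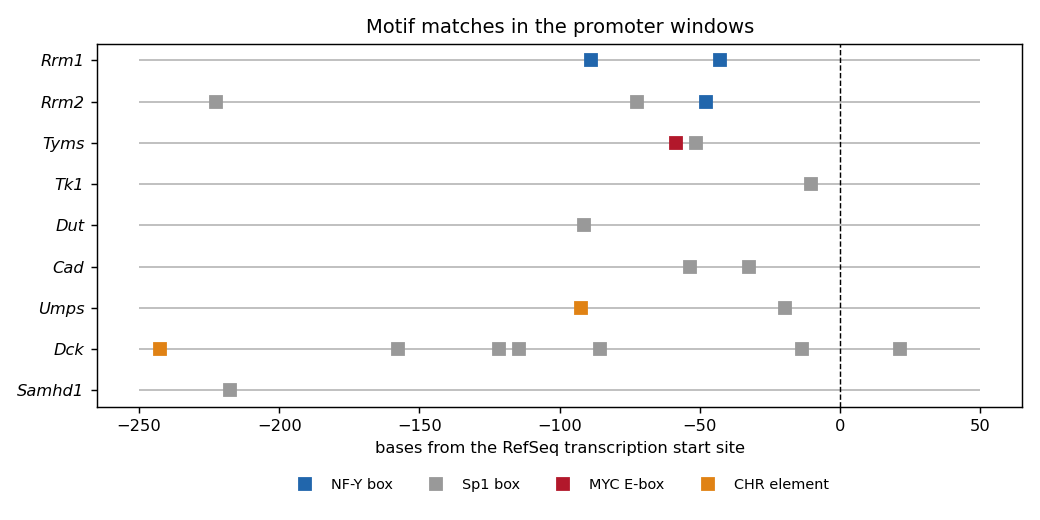
Positions of motif matches (squares) in the RefSeq promoter windows of the 9 genes, as bases from the transcription start site (dashed line). The NF-Y box appears only in Rrm1 and Rrm2 of the 9, and Dck holds 6 Sp1 boxes.

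Transcripts of Tyms, Dut and Tk1, which make or salvage thymidylate, were lower in each comparison. Tyms encodes thymidylate synthase, the target of fluorouracil. It had 730, 704 and 661 normalised counts with LPS+NaBu, 1759, 2015 and 1993 with LPS and 2774, 2706 and 2611 in Control. The groups did not touch, and LPS libraries took the middle place. Tyms changed by -1.46 ± 0.07 with LPS+NaBu against LPS (a 2.75-fold lower mean, limma adjusted p = 2.21e-10) and by -0.49 ± 0.07 with LPS against control (limma adjusted p = 2.82e-05).

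Dut encodes the dUTPase, which supplies the substrate of thymidylate synthase and keeps uracil out of DNA. Dut had 1181, 1335 and 1133 normalised counts with LPS+NaBu, 3303, 3887 and 4159 with LPS and 6373, 6037 and 6185 in Control. Its LPS libraries were the most scattered of any LPS group among the 9 genes but stayed below every Control library. The change was -1.63 ± 0.08 with LPS+NaBu against LPS (3.11-fold lower mean, limma adjusted p = 5.78e-10) and -0.72 ± 0.08 with LPS against control (limma adjusted p = 5.71e-06).

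Tk1, the cytosolic thymidine kinase of dividing cells, fell both with LPS against control and with LPS+NaBu against LPS. Tk1 had 1228, 1167 and 1083 normalised counts with LPS+NaBu, 3047, 3286 and 2890 with LPS and 8244, 7828 and 8143 in Control. The change was -1.41 ± 0.06 with LPS+NaBu against LPS (limma adjusted p = 1.29e-10) and -1.39 ± 0.06 with LPS against control (limma adjusted p = 3.98e-10), and the mean with LPS+NaBu was 6.96-fold lower than in Control. With LPS against control Tk1 had the most negative change of the 9 genes, and 507 of the 14808 genes tested had a more negative one. Exons of Tk1 overlap those of Syngr2, on the other strand, by 630 bases and those of Afmid by 121 bases. How strand entered the counting was not given in the sources used here, so reads could have been shared. Syngr2 had 3783, 3790 and 3454 normalised counts with LPS+NaBu, 4789, 5412 and 5235 with LPS and 5666, 5668 and 6019 in Control, so it was lower in the same order but by smaller steps than Tk1. Afmid averaged 222 ± 27.8 with LPS+NaBu, 102 ± 7.50 with LPS and 145 ± 17.8 in Control (SD, n = 3 each), and was highest with LPS+NaBu.

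The partners of this branch were mostly lower too. Dtymk, the thymidylate kinase, changed by -1.23 ± 0.05 with LPS+NaBu against LPS (limma adjusted p = 1.33e-10) and by -0.34 ± 0.05 with LPS against control (limma adjusted p = 9.85e-05). Tk2, the mitochondrial thymidine kinase, went the other way from Tk1 with NaBu: it had 1430, 1256 and 1288 normalised counts with LPS+NaBu, 740, 872 and 744 with LPS and 834, 807 and 740 in Control. Tk2 rose by 0.76 ± 0.08 with LPS+NaBu against LPS (limma adjusted p = 2.21e-06), whereas its change of -0.02 ± 0.08 with LPS against control did not pass the test (limma adjusted p = 0.879), though it did as -0.24 with libraries scaled to the same sum (limma adjusted p = 0.0186). Of 9 listed thymidylate and folate genes, all tested, 8 fell and 1 rose with LPS+NaBu against LPS, and 6 fell and 2 rose with LPS against control. Among all genes tested, 37.8% were called lower and 40.2% higher in the first comparison, and 30.8% lower and 25.2% higher in the second.

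Cad and Umps, of uridylate synthesis, had the smallest falls of the 9 with LPS+NaBu against LPS. Of the 14808 genes tested, 4909 had a more negative change than Cad in that comparison, and 3940 than Umps. With LPS against control 1593 had a more negative change than Cad, and 4473 than Umps. Cad encodes the large protein that carries the first 3 activities of uridylate synthesis, and is a textbook MYC target. Cad had 6365, 6504 and 6251 normalised counts with LPS+NaBu, 8195, 8224 and 8902 with LPS and 14439, 14556 and 15202 in Control. The wide gap lay between LPS and Control, and a narrow one between LPS+NaBu and LPS. The change was -0.40 ± 0.04 with LPS+NaBu against LPS (limma adjusted p = 2.08e-06), which ranged from -0.51 to -0.13 over the alternatives, the smallest being that with libraries scaled to the same sum, with 0.0147 as the largest adjusted p (limma, edgeR or DESeq2). With LPS against control it was -0.80 ± 0.04 (limma adjusted p = 5.39e-09), a 1.75-fold lower mean.

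Umps encodes the enzyme of the last 2 activities. It had 1719, 1739 and 1682 normalised counts with LPS+NaBu, 2429, 2632 and 2716 with LPS and 3343, 3100 and 3200 in Control. No group reached another, although the gap between LPS and Control was narrow for its spread. The change was -0.60 ± 0.05 with LPS+NaBu against LPS (limma adjusted p = 2.71e-07) and -0.31 ± 0.05 with LPS against control (limma adjusted p = 0.000262). Which of these falls was the larger depended on the scaling, since with libraries scaled to the same sum they were -0.32 and -0.54. The log2 ratio of Cad to Umps was 1.89, 1.90 and 1.89 with LPS+NaBu, 1.75, 1.64 and 1.71 with LPS and 2.11, 2.23 and 2.25 in Control, with no overlap between groups (exact permutation p = 0.1, the smallest possible). Relative to Umps, Cad was lowest with LPS.

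Dhodh, the mitochondrial enzyme between CAD and UMPS, moved against both with NaBu. It had 1243, 1102 and 1078 normalised counts with LPS+NaBu, 692, 742 and 768 with LPS and 1126, 1127 and 1206 in Control. LPS libraries were lowest, and LPS+NaBu libraries lay about the Control libraries. Dhodh fell with LPS against control (-0.65 ± 0.07, limma adjusted p = 5.63e-06) and was higher with LPS+NaBu against LPS (0.63 ± 0.07, limma adjusted p = 3.26e-06), and its change of -0.02 ± 0.07 with LPS+NaBu against control did not pass the test (limma adjusted p = 0.840). Ctps, which turns UTP into CTP, had a mean of 2002 ± 68.8 with LPS+NaBu, 6044 ± 110 with LPS and 6080 ± 158 in Control (SD, n = 3 each). It fell by 1.59 with LPS+NaBu against LPS (limma adjusted p = 2.10e-12). With LPS against control its change of -0.01 ± 0.04 did not pass the test (limma adjusted p = 0.890), though with the libraries scaled to the same sum it did (-0.24, limma adjusted p = 0.000495).

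**Figure D4:**
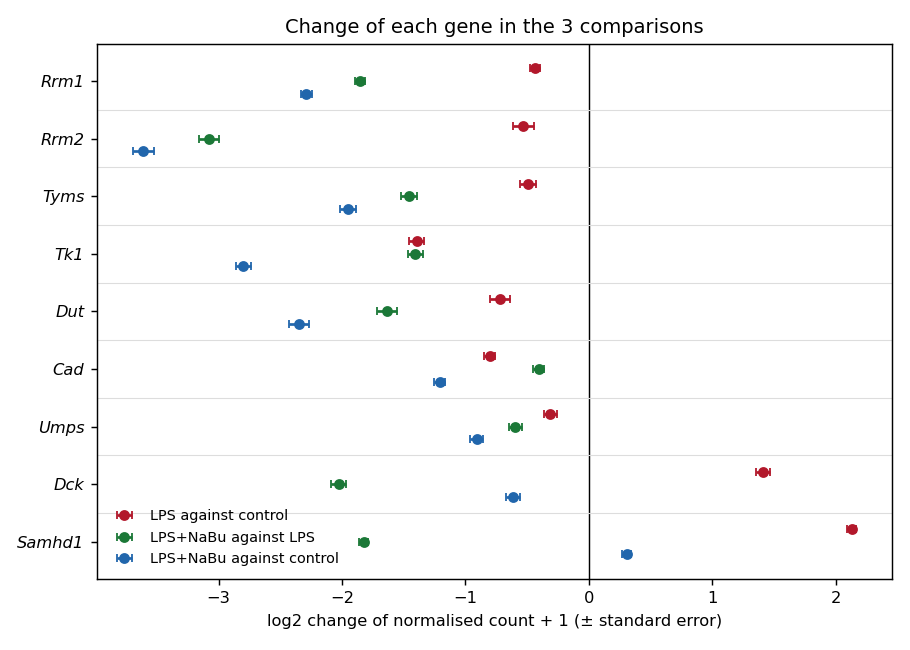
Change of each gene in 3 comparisons, as log2 of normalised count + 1 with its standard error (horizontal axis, n = 3 libraries per group). The LPS+NaBu against LPS points are all below 0, from -0.40 (Cad) to -3.08 (Rrm2), while Dck (1.41) and Samhd1 (2.13) lie above 0 with LPS against control.

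Dck and Samhd1 were the 2 genes that rose with LPS. Dck encodes deoxycytidine kinase, which salvages deoxycytidine and purine deoxynucleosides and activates drugs such as cytarabine. Dck had 1383, 1375 and 1539 normalised counts with LPS+NaBu, 6022, 5413 and 6084 with LPS and 2253, 2147 and 2173 in Control. LPS libraries were far above both other groups, and LPS+NaBu libraries were below every Control library. The change was 1.41 ± 0.06 with LPS against control (a 2.67-fold higher mean, limma adjusted p = 3.96e-10), -2.03 ± 0.06 with LPS+NaBu against LPS (a 4.08-fold lower mean, limma adjusted p = 4.42e-12) and -0.61 ± 0.06 with LPS+NaBu against control (limma adjusted p = 7.34e-07).

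The salvage kinases Tk1 and Dck thus changed in opposite directions with LPS. The log2 ratio of Tk1 to Dck was -0.17, -0.24 and -0.51 with LPS+NaBu, -0.98, -0.72 and -1.07 with LPS and 1.87, 1.87 and 1.91 in Control. All 6 libraries given LPS lay below every Control library, with LPS alone the lowest. The ratio was lower by a factor of 6.99 with LPS than in Control, and higher by a factor of 1.54 with LPS+NaBu than with LPS (exact permutation p = 0.1 for each, the smallest possible). Dguok, the mitochondrial counterpart of Dck for purine deoxynucleosides, had 1194, 1201 and 1206 normalised counts with LPS+NaBu, 643, 741 and 679 with LPS and 581, 599 and 632 in Control. Dguok rose by 0.81 ± 0.07 with LPS+NaBu against LPS (limma adjusted p = 2.37e-07), opposite to Dck. Its change with LPS against control was 0.19 ± 0.07 (limma adjusted p = 0.0428), a call lost in 10 of the alternatives and turned to -0.04 when libraries were scaled to the same sum.

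Samhd1 had the largest rise of the 9 with LPS. It had 7032, 6982 and 7281 normalised counts with LPS+NaBu, 25083, 25166 and 25185 with LPS and 5634, 5791 and 5798 in Control. The SD of the LPS libraries was 0.217% of their mean, and LPS+NaBu libraries lay slightly but wholly above Control. The change was 2.13 ± 0.04 with LPS against control (a 4.38-fold higher mean, limma adjusted p = 4.42e-14). It was -1.82 ± 0.04 with LPS+NaBu against LPS (a 3.54-fold lower mean, limma adjusted p = 1.85e-13), and 0.31 ± 0.04 with LPS+NaBu against control (limma adjusted p = 6.24e-06). Of all genes tested, 58.99% had a lower change than Samhd1 in that last comparison.

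Set against Rrm1, the level of Samhd1 separated libraries given LPS from Control but not LPS+NaBu from LPS. The log2 ratio of Samhd1 to Rrm1 was 1.23, 1.23 and 1.24 with LPS+NaBu, 1.23, 1.25 and 1.14 with LPS and -1.41, -1.37 and -1.31 in Control. All 6 libraries given LPS lay together. The difference was 0.03 with LPS+NaBu against LPS (exact permutation p = 0.7) and turned to -0.01 without LPS library 3. It was 2.57 with LPS against control and 2.60 with LPS+NaBu against control (exact permutation p = 0.1 for each). The p of 0.7 does not show that the ratios are equal.

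Between genes, levels can be set side by side only per length. Per kilobase of merged GENCODE M39 exons, Samhd1 had the highest level of the 9 with LPS+NaBu (776 ± 17.5 normalised counts per kilobase) and with LPS (2747 ± 5.97), and Rrm2 had the highest in Control (2413 ± 78.5; SD, n = 3 each). Tyms was lowest in each group, at 108 ± 5.37 with LPS+NaBu, 297 ± 21.9 with LPS and 416 ± 12.6 in Control. With LPS+NaBu the order below Samhd1 was Cad (725 ± 14.4), Dut (427 ± 37.1), Dck (346 ± 22.3), Umps (279 ± 4.72), Rrm1 (257 ± 5.50), Rrm2 (199 ± 26.2) and Tk1 (174 ± 10.9), and the neighbours Rrm2 and Tk1 were within their spread. Rrm2 was thus the seventh of 9 with LPS+NaBu, while it was behind Samhd1 alone with LPS (1672 ± 118). The order depends on the length used: with the longest transcript in place of merged exons, Tk1 was highest in Control (3242 ± 87.2) and Dck was lowest (683 ± 17.2, within the spread of Tyms at 690 ± 20.9), Samhd1 stayed highest in both groups given LPS, and Rrm2 was the eighth with LPS+NaBu (251 ± 33.2). As a share of all normalised counts, the 9 genes together made up 0.0534% with LPS+NaBu, 0.127% with LPS and 0.145% in Control. Without Dck and Samhd1, which both rose with LPS against control, the other 7 made up 0.0339%, 0.0684% and 0.127%.

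Around the 9 genes, 76 enzymes and transporters of nucleotide metabolism were listed, of which 71 were tested. With LPS+NaBu against LPS 45 fell and 21 rose (median -0.44), and with LPS against control 41 fell and 14 rose (median -0.31). With libraries scaled to the same sum, 8 were called higher with LPS against control. With LPS+NaBu against control 46 fell and 21 rose (median -0.76). In the same comparisons 37.8% and 30.8% of all genes tested, and 35.1% with LPS+NaBu against control, were called lower. Purine synthesis and salvage had 13 of 19 tested genes lower and 5 higher with LPS+NaBu against LPS, and the pool cleaning and breakdown genes had 8 of 13 lower and 4 higher. Salvage of pyrimidines and deoxynucleosides was split, with 4 lower and 4 higher of 9.

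The naming rule took the strongest changes among these genes and the listed regulators, which include both enzymes and regulators. Cmpk2, a mitochondrial UMP and CMP kinase induced by interferon, had 1859, 2402 and 2279 normalised counts with LPS+NaBu, 18618, 18813 and 20125 with LPS and 4.77 to 10.1 in Control. Upp1, a uridine phosphorylase, had 109, 114 and 85.3 with LPS+NaBu, 832, 927 and 970 with LPS and 17.2 ± 14.1 (SD, n = 3) in Control. Both shared the pattern of Samhd1, highest with LPS and above Control with LPS+NaBu. The changes were -3.14 ± 0.20 for Cmpk2 (limma adjusted p = 7.29e-09) and -3.14 ± 0.38 for Upp1 (limma adjusted p = 4.82e-06) with LPS+NaBu against LPS.

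Upp2, its paralog, went the other way with NaBu, rising by 1.98 ± 0.22 (limma adjusted p = 1.81e-06); its fall of -0.70 with LPS against control (limma adjusted p = 0.0143) was lost without Control library 1 (limma adjusted p = 0.0545) or Control library 3 (limma adjusted p = 0.0684). Ak1, an adenylate kinase, had 3336, 3277 and 3198 normalised counts with LPS+NaBu, 467, 580 and 534 with LPS and 1686, 1511 and 1416 in Control. Ada, adenosine deaminase, had 2350, 2484 and 2269 with LPS+NaBu, 395, 491 and 424 with LPS and 861, 662 and 811 in Control. These 2 purine enzymes were thus lowest with LPS and highest with LPS+NaBu, the reverse of Dck. Nt5e, the surface nucleotidase CD73, changed by -1.05 ± 0.10 with LPS against control (limma adjusted p = 1.78e-06) and by 1.69 ± 0.10 with LPS+NaBu against LPS (limma adjusted p = 5.15e-09). Dctd, which deaminates dCMP to the dUMP that TYMS uses, averaged 218 ± 30.6 with LPS+NaBu, 1198 ± 37.9 with LPS and 2061 ± 61.9 in Control, the same order as Tyms and Dut, and changed by -3.24 ± 0.09 with LPS+NaBu against control (limma adjusted p = 3.04e-12).

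**Figure D5:**
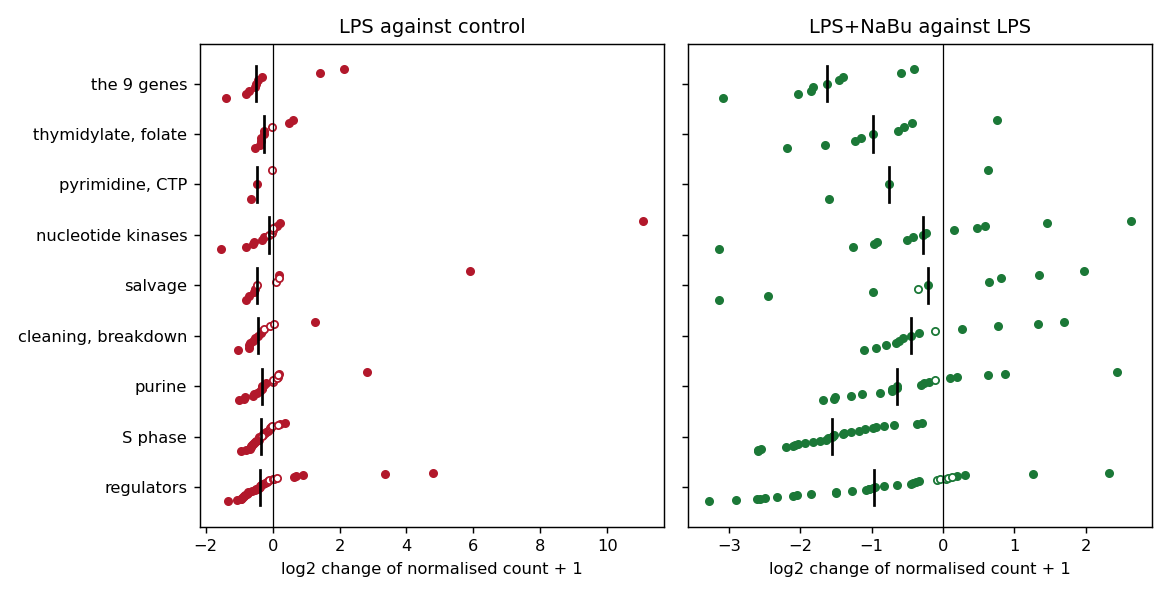
Change of each tested gene (points, spread vertically by rank) as log2 of normalised count + 1, for the 9 genes and 8 lists around them, with LPS against control (left) and LPS+NaBu against LPS (right). Filled points passed the adjusted p of 0.05, open points did not, and black bars are list medians (-1.63 for the 9 genes and -1.55 for S phase genes in the right panel).

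Of 32 listed regulators of S phase genes, 23 fell and 4 rose with LPS+NaBu against LPS (median -0.96), and 22 fell and 5 rose with LPS against control (median -0.39). Of all genes tested, 37.8% were lower and 40.2% higher in the first of these comparisons, and 30.8% lower and 25.2% higher in the second. Ccna2, cyclin A2 of S phase, had 296, 295 and 294 normalised counts with LPS+NaBu, 2212, 2113 and 2335 with LPS and 4110, 4330 and 4333 in Control. It stood in the order of Rrm2, and changed by -2.91 ± 0.06 with LPS+NaBu against LPS (limma adjusted p = 1.21e-13). Foxm1 and Mybl2, transcription factors of the later cell cycle, changed by -3.55 ± 0.06 and -3.39 ± 0.05 with LPS+NaBu against control (limma adjusted p = 2.78e-14 and 1.55e-14). Rb1, which holds E2F factors inactive, had 1475, 1458 and 1684 with LPS+NaBu, 323, 258 and 339 with LPS and 651, 703 and 574 in Control. Rb1 was thus highest with LPS+NaBu and lowest with LPS. Its part in the levels of the 9 genes was not tested. Rbl2, its relative of resting cells, was 1.26 ± 0.09 higher with LPS+NaBu against LPS (limma adjusted p = 1.61e-08) and changed by -1.34 ± 0.09 with LPS against control (limma adjusted p = 2.27e-08).

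The growth regulator Myc and its antagonist Mxd1 both rose with LPS. Mxd1 had 4794, 4581 and 4875 normalised counts with LPS+NaBu, 4667, 4492 and 4483 with LPS and 440, 417 and 469 in Control, with LPS+NaBu and LPS libraries together far above Control. Myc averaged 402 ± 27.1 with LPS+NaBu, 3904 ± 241 with LPS and 140 ± 12.8 in Control (SD, n = 3 each), and changed by -3.28 ± 0.09 with LPS+NaBu against LPS (limma adjusted p = 2.28e-12). The change of Mxd1 in that comparison, 0.06 ± 0.05, did not pass the test (limma adjusted p = 0.308), but passed it as 0.34 with libraries scaled to the same sum (limma adjusted p = 9.77e-05). With LPS against control Cad changed by -0.80 and Myc by 4.80, and with LPS+NaBu against LPS they changed by -0.40 and -3.28. A link between Myc and Cad was not tested.

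Finally, each of the 9 genes was set against the 8938 tested genes with a mean of at least 500, by the Pearson correlation of log2 values over the 9 libraries. The libraries form 3 groups, so these values mostly compare the pattern of 3 group means, and 45 (Cad) to 359 (Rrm1) genes had r over 0.99. Nearest to Rrm1 were Ccnb1, cyclin B1 (r = 0.9995), and Kif20a, a mitotic kinesin (r = 0.9994). Nearest to Rrm2 were Rad54l, of recombination repair (r = 0.9992), and Pbk, a mitotic kinase (r = 0.9992). Tyms was closest to Mgme1 and Txndc15, Dut to Shmt2, the mitochondrial serine hydroxymethyltransferase, and Ube2c, a partner of the anaphase-promoting complex, Tk1 to Rangap1 and Mmab, Umps to Nup50 and Ppan, and Cad to Ptpra and Colgalt1 (r = 0.9971 to 0.9992). A high r does not mean changes of like size. For example, with LPS+NaBu against LPS the mean of Nup50 was 1.14-fold lower and that of Umps 1.51-fold lower. Samhd1 was closest to Parp9, an interferon-induced gene (r = 0.9994), and Il1rn, the interleukin-1 receptor antagonist (r = 0.9992). Dck was closest to the pseudogene Slfn10-ps (r = 0.9988) and to Fndc3a (r = 0.9985).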

How the data were processed

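The paper describes mRNA sequencing after a directional library protocol, and the 9 RAW264.7 libraries were used here. The methods name Trimmomatic, HISAT2 and featureCounts on uniquely mapped reads, while STAR 2.7.7a, DESeq2 and the mm39 build stand in the submitters' processing notes, so the aligner is unclear. The deposited values are called FPKM, but the signal deposited by the authors is each gene's read count over the size factor of its library: 100% of values were whole reads within 0.001, and the factors equal the median-of-ratios factors of DESeq2. In 3 libraries the step is within 1% of 1, where whole multiples say little. No gene length enters.

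The 9 genes, gene lists and naming rule were chosen with earlier results of these data known. The rule names the 9 genes, 8 partners and paralogs (Rrm2b, Dhodh, Ctps, Dtymk, Tk2, Dguok, Cmpk2 and 1 that is not reported here), per comparison the 4 largest rises and 4 largest falls among called listed genes (without the S phase and interferon lists), and for each of the 9 the 2 genes most correlated with it.

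Genes with at least 10 normalised counts in 3 libraries were tested as log2(value + 1) with limma 3.58.1 in R 4.3.3 (a mean per group, all 9 libraries, intensity trend, two-sided, Benjamini-Hochberg over 14808 genes). Ratios were tested by exact permutation (scipy 1.17.1). Alternatives were edgeR 4.0.16 and DESeq2 1.42.0 on recovered reads, other scalings, pseudocounts of 0.5 and 10, no filter or a minimum of 50, a replicate block and leaving out each library. The limma step was tested on simulated data. Identifiers were matched to GENCODE M39 on GRCm39 (38984 of 43629); coordinates count from 1. Promoter windows came from RefSeq. Depth was 37.6 to 64.4 M reads per library.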

Additional observations from a re-analysis of the deposited data

How the results depend on the processing

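All 27 calls of the 9 genes kept their direction and their side of the threshold in all 21 alternatives. Direction could not change with another filter, the replicate block, a fit of only the groups compared or the omission of a library outside the comparison. Scaling the libraries to the same sum moved 3 counts with LPS against control: 8 nucleotide metabolism genes were called higher in place of 14, 2273 of all genes higher in place of 3739, and 7074 lower in place of 4568. Among the named genes, Dguok turned to -0.0418 with LPS against control under that scaling. The log2 ratio of Samhd1 to Rrm1 with LPS+NaBu against LPS turned to -0.00625 without LPS library 3, and ranged from -0.00625 to 0.0523 over the omissions of a library. Leaving out each library gave 11 to 15 nucleotide metabolism genes higher and 40 to 42 lower with LPS against control. With LPS+NaBu against LPS it gave 20 to 21 higher and 44 to 46 lower. The cause of these shifts was not tested. Levels per kilobase of all 9 genes moved in each group when the longest transcript replaced merged exons.

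Same-numbered libraries did not deviate together (correlations of -0.04 to 0.02 over 9 pairs), so no pairing was seen. The labels do not say whether they were cultured or prepared together, and these correlations cannot decide it. With the replicate number as a block, 2 of the 9 genes were higher and 7 lower with LPS against control, 9 lower with LPS+NaBu against LPS, and of all genes 3577 were higher and 4400 lower in the first of these comparisons. Of the named genes' calls, that of Dguok with LPS against control was lost (limma adjusted p = 0.0598).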
